A study of Mus musculus with 6 samples.

Results

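Interferon-stimulated genes were followed as a set of 43 genes, chosen by symbol as well-known targets of interferon signalling and matched by their Ensembl identifiers, through GENCODE M21, to rows of a table of 54532 genes. All 43 were found. RNA was taken from whole kidneys of male mice bred on the C57BL/6 background, whose age is not given in the sources used here. KSPAPN mice carried KsprtTA, which expresses the doxycycline-dependent activator rtTA in kidney epithelium from proximal tubule to collecting duct, together with TRE-Adiponectin, the adiponectin transgene that rtTA switches on. Control mice carried KsprtTA without that transgene, and the deposited labels call them wild type. Both groups ate chow with doxycycline at 600 mg/kg for 4 days, so that doxycycline and rtTA are common to them. Each group had 3 libraries, and each library was a pool of several mice, so that replicate error here means differences among pools. Libraries held 18205023, 17921633 and 17183358 in Control replicates 1 to 3, and 20871173, 18150442 and 19821381 in KSPAPN replicates 1 to 3, counted on genes.

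Interferons are secreted proteins that warn cells of infection. Type I and type III interferons signal through JAK kinases to a complex that holds STAT2 and IRF9 and binds the interferon-stimulated response element, and interferon gamma acts through the gamma-activated site. The genes switched on encode antiviral proteins, sensors of viral RNA and DNA, GTPases that attack intracellular microbes and the machinery that displays peptides on MHC class I, and tubular epithelium, endothelium and resident leukocytes of the kidney can all express them.

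The level of *Adipoq* was checked in every library. Reads on *Adipoq* numbered 2, 0 and 2 in Control and 24629, 17483 and 26811 in KSPAPN, so each library matched its label. Kidney identity was clear from tubular markers. The FPKM (fragments per kilobase of transcript, scaled to the library) of 5 proximal tubule genes summed to 1701, 1422 and 1413 in Control and to 1384, 1248 and 1393 in KSPAPN.

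Promoter sequences show the elements through which these genes are known to respond. RefSeq promoter windows (GRCm38.p6, 250 bases before to 50 bases after the start) were matched for 33 of the 43 genes. The core of the interferon-stimulated response element, searched as GAAANNGAAA on both strands with overlapping matches allowed, lay in the windows of 16 of the 33 genes (48.5%), against 3.99% of the 27025 genes with a window. The core of the gamma-activated site, TTCNNNGAA, which reads the same on both strands, was in 8 of the 33 (24.2%), against 9.55% of all genes. A match is a run of letters and was not tested for binding. The 200 bases before the start are printed below for 6 genes taken up later, 5' to 3' on the gene's own strand, with matches in capitals. *B2m* (chr2:122147487-122147686, plus strand) and *Rsad2* (chr12:26456453-26456652, minus strand) each hold 1 response element core, *Isg15* (chr4:156200819-156201018, minus strand) holds 3 overlapping ones, and the neighbours *Ifit3* (chr19:34583329-34583528, plus strand) and *Ifit3b* (chr19:34607757-34607956, plus strand) hold 2 each. The window of *Irf1* (chr11:53769814-53770013, plus strand) is that of the first of 2 listed starts and holds a gamma-activated site core, whose first base is 90 bases before the start.
B2m: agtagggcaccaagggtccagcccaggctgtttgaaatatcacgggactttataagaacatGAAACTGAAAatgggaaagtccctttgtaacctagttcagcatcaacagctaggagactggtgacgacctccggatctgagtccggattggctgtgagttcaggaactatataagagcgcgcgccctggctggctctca
Rsad2: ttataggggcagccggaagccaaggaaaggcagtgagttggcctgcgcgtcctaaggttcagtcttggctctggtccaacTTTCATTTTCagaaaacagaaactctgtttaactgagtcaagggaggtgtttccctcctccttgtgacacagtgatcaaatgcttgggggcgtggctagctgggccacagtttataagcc
Isg15: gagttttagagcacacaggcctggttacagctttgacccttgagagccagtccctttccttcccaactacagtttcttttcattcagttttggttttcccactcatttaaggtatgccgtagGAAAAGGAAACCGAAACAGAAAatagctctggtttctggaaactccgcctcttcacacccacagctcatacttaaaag
Ifit3: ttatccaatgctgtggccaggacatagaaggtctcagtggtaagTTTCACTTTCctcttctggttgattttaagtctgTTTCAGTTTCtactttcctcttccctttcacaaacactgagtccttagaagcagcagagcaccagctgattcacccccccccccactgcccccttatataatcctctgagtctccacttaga
Ifit3b: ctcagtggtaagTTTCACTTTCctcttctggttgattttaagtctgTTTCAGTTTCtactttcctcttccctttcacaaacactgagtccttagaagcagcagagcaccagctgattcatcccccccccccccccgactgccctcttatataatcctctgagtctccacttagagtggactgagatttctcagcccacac
Irf1: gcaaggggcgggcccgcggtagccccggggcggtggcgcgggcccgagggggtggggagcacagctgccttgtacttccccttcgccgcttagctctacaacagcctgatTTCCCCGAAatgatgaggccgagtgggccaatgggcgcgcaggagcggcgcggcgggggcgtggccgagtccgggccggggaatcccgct

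Between KSPAPN and Control, small differences ran mostly upward, and none of the 43 genes passed the test across all genes. The median log2 fold change of the 43 was 0.13 (0.21 with the GC and length trend removed, where that of all genes was 0.043), against 0.012 over the 16017 genes tested, and 33 of the 43 (76.7%) were above 0, against 51.9% of all genes. Most libraries stood further from the others of their group than the groups did from each other, above all Control replicate 3, which was high for most of the genes, and KSPAPN replicate 2, which was low. *B2m*, the light chain of MHC class I, came nearest to the threshold, at 0.37 on the log2 fold change scale (standard error, SE, 0.11; n = 3 libraries a group). In RNA from a whole organ, fewer cells of a type and less RNA per cell cannot be told apart.

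With the quasi-likelihood test of edgeR and a threshold of 0.05 on the adjusted p, 0 of the 43 were higher and 0 lower, where 0.393% of all genes tested were higher and 2.25% lower. At an unadjusted p under 0.05, 5 of the 43 were higher, *B2m*, *Ifit2*, *Ifih1*, *Rsad2* and *Ddx58*, and 0 were lower, where 7.52% of all genes were higher and 11.2% lower. DESeq2 gave 42 of the 43 an adjusted p and called 1, *B2m*, as higher (adjusted p = 0.0431) and 0 as lower, where it called 1.29% of genes higher and 5.31% lower, and limma on log2(FPKM + 1) called 0 of the 43 (2 at an unadjusted p under 0.05, or 4.65%, against 17.8% of all genes). Every KSPAPN library lay above every Control library in 3 of the 43 (6.98%), *Ifit2*, *Rsad2* and *B2m*, and the reverse held for 0. Among all genes tested, 11.4% lay apart upward in this way and 13.1% downward, so a count of 3 is not above the background. The 95% intervals of the log2 fold change stayed inside a 2-fold difference in either direction for 38 of the 43 genes. In *Isg15*, *Ifit1*, *Xaf1* and *Zbp1* the interval reached above 2-fold higher and in *Mx1* below 2-fold lower, so a 2-fold difference was not excluded in these 5.

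**Figure D1:**
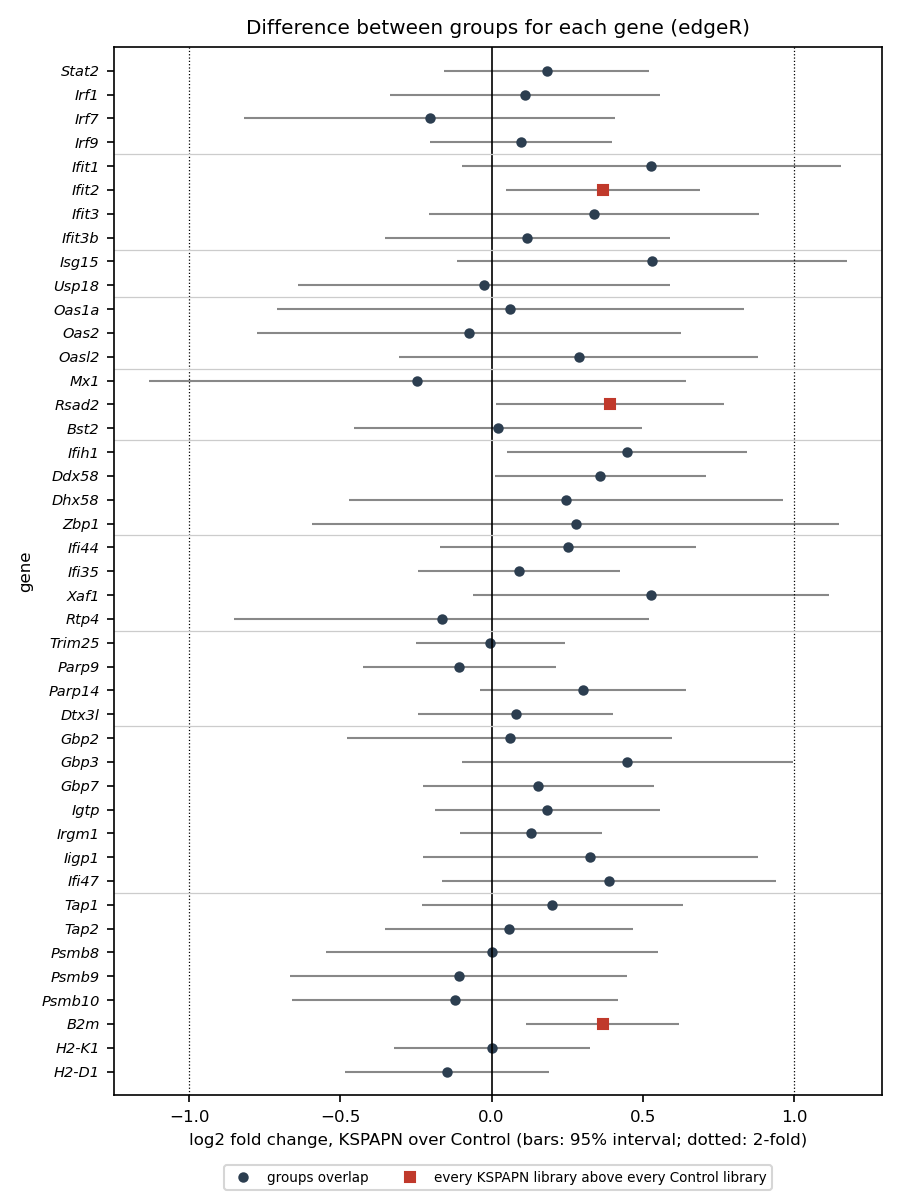
Log2 fold change of each of the 43 genes, KSPAPN over Control (horizontal axis), with its 95% interval from edgeR (n = 3 libraries a group). The points run from -0.25 for *Mx1* to 0.53 for *Isg15*, and the squares mark *Ifit2*, *Rsad2* and *B2m*, whose groups do not overlap.

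The libraries were then compared with each other. On log2 CPM (counts scaled to library size), relative to the mean of the 6 libraries, the median of the 43 genes was -0.13 in Control replicate 1, -0.21 in Control replicate 2 and 0.13 in Control replicate 3. It was 0.24 in KSPAPN replicate 1, -0.17 in KSPAPN replicate 2 and 0.21 in KSPAPN replicate 3. Over all genes tested the same medians lay between -0.011 and 0.023. KSPAPN replicate 2 thus sat among the lower Control libraries, and Control replicate 3 lay nearer to the higher KSPAPN libraries than to its own group.

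Within Control, replicate 3 was the highest library for 34 of the 43 genes (79.1%, against 30.2% of all genes tested). Within KSPAPN, replicate 2 was the lowest for 35 of the 43 (81.4%, against 33.8%). The median difference of a library from the others of its group was -0.11, -0.19 and 0.30 on the log2 scale for the Control replicates and 0.19, -0.37 and 0.19 for those of KSPAPN. Apart from Control replicate 1, each is larger in size than the median difference of 0.13 between the groups. KSPAPN replicate 3 was the highest of all 6 libraries for 17 genes and KSPAPN replicate 1 for 14, so these 2 libraries together held the highest value for most of the set.

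Pairs of libraries give the same picture. KSPAPN replicate 1 exceeded Control replicate 2 by a median of 0.49 and in 38 of the 43 genes, but Control replicate 3 by 0.0039 and in 23 genes. KSPAPN replicate 2 was below Control replicate 3 in most genes, with a median difference of -0.28 and 10 genes higher. Its medians against Control replicates 1 and 2 were close to 0 (-0.026 and -0.0087, with 21 genes higher in each). Every pair with KSPAPN replicate 1 or 3 had a median above 0, from 0.0039 to 0.49. The direction over the set therefore turned only in the pairs that held KSPAPN replicate 2.

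**Figure D2:**
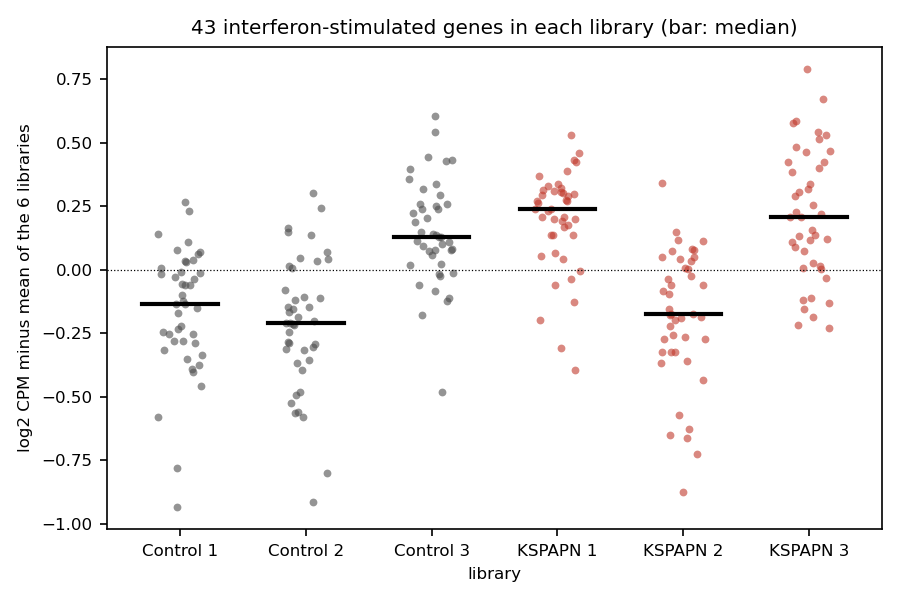
Each point is 1 of the 43 genes, placed by its log2 CPM in a library minus its mean over the 6 libraries (vertical axis); bars are medians. The medians of Control replicates 1 and 2 and KSPAPN replicate 2 lie between -0.21 and -0.13, and those of the other libraries between 0.13 and 0.24.

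Each library was left out of the fit in turn. Of the 43 genes, 0 were called in any of the 6 edgeR fits, where from 39 to 733 of all genes were called. From 1 to 10 of the 43 had an unadjusted p under 0.05 (2.33% to 23.3%, against 12.0% to 21.8% of all genes). The highest share, 23.3% without Control replicate 3, stood against 16.2% of all genes in that fit. The lowest, 2.33% without Control replicate 2, stood against 15.9%. The median log2 fold change was 0.25 without Control replicate 3, with 40 of 43 above 0, and 0.29 without KSPAPN replicate 2, with 38 above 0. It was 0.092 without Control replicate 1 (30 above 0), 0.11 without Control replicate 2 (27), 0.12 without KSPAPN replicate 1 (28) and 0.095 without KSPAPN replicate 3 (31). The sign of the median was the same in all 6 fits, and its size depended on Control replicate 3 and KSPAPN replicate 2 by more than 1.5 times.

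**Figure D3:**
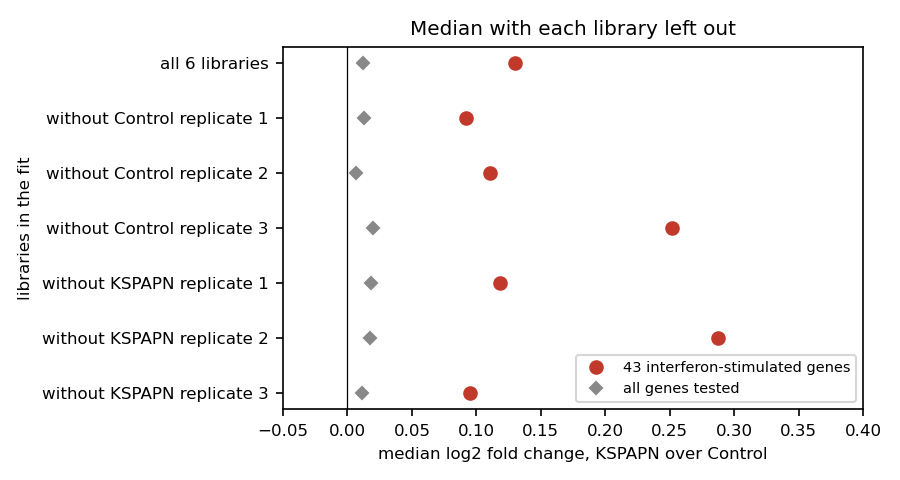
Median log2 fold change (horizontal axis) of the 43 genes (circles) and of all genes tested (diamonds) with all libraries and with each left out. The circles move from 0.092 to 0.29 while the diamonds stay between 0.0067 and 0.020.

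The groups of genes did not vary alike across libraries, as the map of all 43 genes shows. In the OAS family, which makes the messenger that activates RNase L, KSPAPN replicate 3 was the highest library for 3 of 3 genes, and the family's median relative to the 6 libraries was 0.54 there and -0.43 in KSPAPN replicate 2. In antigen presentation KSPAPN replicate 1 was the highest KSPAPN library for 8 of 8 genes (38.0% of all genes). KSPAPN replicate 2 was the lowest for 8 of 8 (33.8% of all genes). KSPAPN replicate 1 also stood apart outside the set. Its 2 collecting duct markers summed to 558 FPKM, against 254 to 379 in the other libraries. Most of this sum was *Aqp2*, with a mean of 316 FPKM over the 6 libraries. *Havcr1*, 1 of 3 listed markers of tubular injury, was at 1.84 FPKM in KSPAPN replicate 1 and at most 0.837 elsewhere. All 3 markers, *Havcr1* among them, summed to 3.64 FPKM in that library and to 1.74 to 2.61 elsewhere. Apart from *Havcr1*, the injury markers were not clearly higher there than in KSPAPN replicate 2. The part of these differences in the result was not tested. In the IFIT family Control replicate 1 was the lowest of all libraries for 3 of 4 genes (20.8% of all genes). Ubiquitin and ADP-ribose enzymes spread least, with library medians from -0.13 to 0.12.

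**Figure D4:**
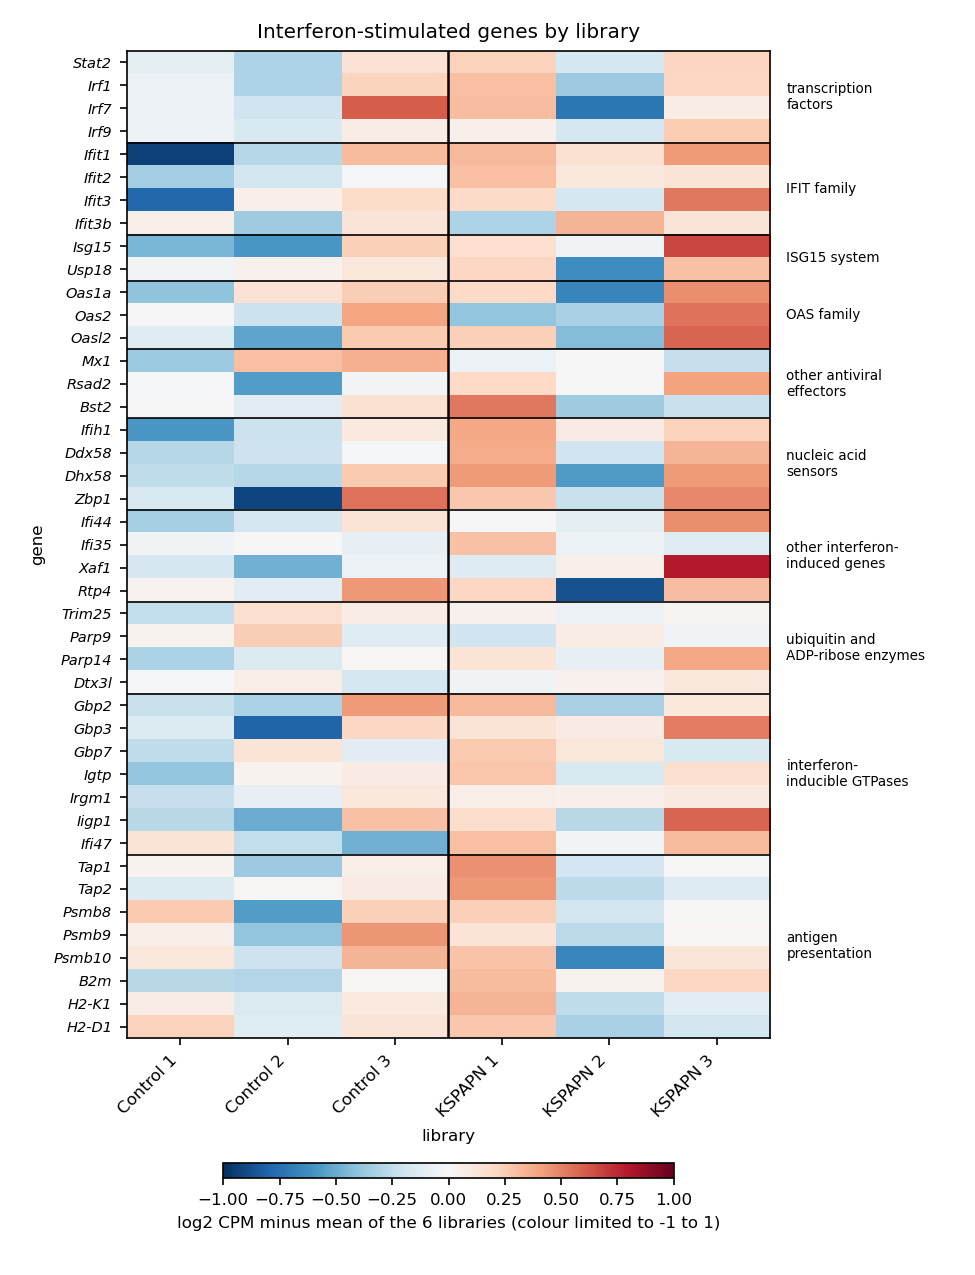
Log2 CPM of each gene (rows, grouped by role) in each library (columns) minus the gene's mean over the 6 libraries, with colours limited to -1 to 1. Control 3, KSPAPN 1 and KSPAPN 3 are mostly red, and KSPAPN 2 is mostly blue outside the IFIT family.

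Of the transcription factors, *Stat2* and *Irf9* encode partners in the complex that binds the response element, while *Irf1* and *Irf7* are factors that amplify the response. The FPKM of *Stat2* was 4.23, 3.65 and 4.98 in Control and 5.23, 4.03 and 5.26 in KSPAPN. That of *Irf9* was 4.34, 4.05 and 4.73 in Control and 4.59, 4.01 and 5.36 in KSPAPN. In both genes Control replicate 2 and KSPAPN replicate 2 were low, and the groups overlapped. *Irf1*, whose promoter window is shown above with its gamma-activated site core, stood at 3.39, 2.86 and 4.12 FPKM in Control and 4.29, 2.75 and 4.08 in KSPAPN. *Irf7* had 3.19, 2.89 and 5.05 FPKM in Control and 4.06, 2.01 and 3.49 in KSPAPN, so that its highest value was that of Control replicate 3 and its lowest that of KSPAPN replicate 2. Log2 fold changes were 0.18 for *Stat2* (SE 0.15), 0.11 for *Irf1* (0.20), -0.20 for *Irf7* (0.28) and 0.097 for *Irf9* (0.14), with adjusted p from edgeR between 0.567 and 0.814. The direction of *Irf7* turned to 0.082 without Control replicate 3 and 0.039 without KSPAPN replicate 2, that of *Irf1*, 0.24 with the GC and length trend removed, to -0.013 without Control replicate 2 and that of *Irf9* to -0.014 without KSPAPN replicate 3. *Stat2* ran from 0.076 without Control replicate 2 to 0.30 without Control replicate 3. *Irf7* overlaps *Phrf1* on the other strand, and with the strandedness of the counting not given their reads cannot be told apart. *Irf9* overlaps *Rnf31* on the same strand, where strand could not separate them.

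The IFIT proteins bind foreign RNA and block its translation. All 4 genes had log2 fold changes above 0, with a median of 0.35. *Ifit2* stood at 2.78, 3.11 and 3.49 FPKM in Control and 4.31, 3.86 and 3.88 in KSPAPN. Its groups did not overlap, and it is described because its values were seen to lie apart. The log2 fold change was 0.37 (SE 0.14; edgeR adjusted p = 0.206). *Ifit1* measured 1.18, 1.87 and 2.85 FPKM in Control and 2.83, 2.55 and 3.07 in KSPAPN. Control replicate 3 lay inside the KSPAPN range, and the spread within Control was the wider. Its log2 fold change of 0.53 (SE 0.28; edgeR adjusted p = 0.351) was 0.26 without Control replicate 1 and 0.90 without Control replicate 3. *Ifit3* and *Ifit3b*, with values of 0.34 and 0.12, share 31.7% and 27.4% of their 100-base stretches with each other's transcripts, so the split of reads between them is uncertain.

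*Isg15* encodes a ubiquitin-like protein that is attached to other proteins, and *Usp18* the protease that removes it and restrains the receptor. *Isg15* had 4.00, 3.66 and 6.55 FPKM in Control and 6.13, 5.43 and 8.87 in KSPAPN. Control replicate 3 exceeded KSPAPN replicates 1 and 2, and KSPAPN replicate 3 was the highest. The log2 fold change was 0.53 (SE 0.29; edgeR adjusted p = 0.361), or between 0.924-fold and 2.26-fold by its 95% interval. It moved to 0.30 without KSPAPN replicate 3 and to 0.84 without Control replicate 3. *Usp18* was at -0.025. Of the OAS genes, *Oas1a*, *Oas2* and *Oasl2* ranged from -0.075 to 0.29, and *Oas1a* shares 40.9% of its stretches with other transcripts, chiefly of *Oas1g*.

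*Rsad2* encodes viperin, an enzyme that makes a chain-terminating nucleotide. It measured 4.75, 3.25 and 4.70 FPKM in Control and 5.42, 4.85 and 6.33 in KSPAPN. The groups were apart by a narrow margin, between Control replicate 1 and KSPAPN replicate 2. The log2 fold change was 0.39 (SE 0.17; edgeR adjusted p = 0.249), or 0.23 without Control replicate 2, and the gene was likewise picked for its values. *Bst2*, which tethers budding virus to the cell, was at 0.022 and *Mx1*, an antiviral GTPase, at -0.25, the lowest of the 43, on a mean of 0.233 FPKM.

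Among the sensors, *Ifih1* (MDA5) and *Ddx58* (RIG-I) detect double-stranded RNA, *Dhx58* is their relative LGP2 and *Zbp1* senses Z-form nucleic acid. All 4 had log2 fold changes above 0, from 0.25 to 0.45. *Ifih1* had 1.30, 1.67 and 2.08 FPKM in Control and 2.51, 2.07 and 2.28 in KSPAPN. Control replicate 3 and KSPAPN replicate 2 met at nearly the same level, and the other libraries were apart. Its log2 fold change was 0.45 (SE 0.18; edgeR adjusted p = 0.215), or 0.29 without Control replicate 1.

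The 4 other interferon-induced genes ranged from -0.16 for *Rtp4* to 0.53 for *Xaf1*, which encodes a factor that antagonises XIAP. *Xaf1* measured 1.10, 0.885 and 1.19 FPKM in Control and 1.12, 1.30 and 2.16 in KSPAPN. KSPAPN replicate 3 set it apart, and without that library the log2 fold change of 0.53 (SE 0.26; edgeR adjusted p = 0.320) was 0.19. *Ifi44* and *Ifi35* were at 0.25 and 0.090. The ubiquitin and ADP-ribose enzymes *Trim25*, *Parp9*, *Parp14* and *Dtx3l* ranged from -0.11 to 0.30, and *Parp9* and *Dtx3l* overlap head to head, with starts 681 bases apart.

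Interferon-inducible GTPases coat and break the compartments of intracellular microbes. All 7 had log2 fold changes above 0, from 0.061 for *Gbp2* to 0.45 for *Gbp3*, with a median of 0.18, and 0 of them passed an unadjusted p of 0.05 in edgeR (18.7% of all genes did) or an adjusted one in edgeR or DESeq2. *Gbp3* had 2.35, 1.47 and 2.96 FPKM in Control and 2.79, 2.75 and 3.68 in KSPAPN. Control replicate 2 was the low library, and Control replicate 3 lay within the KSPAPN range. The standard error was 0.25 and the adjusted p from edgeR 0.363, and the log2 fold change became 0.22 without Control replicate 2 and 0.69 without Control replicate 3.

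Antigen presentation held the most abundant genes. *B2m* (ENSMUSG00000060802, chr2:122147686-122153083, GRCm38) had 201, 198 and 245 FPKM in Control and 297, 250.3 and 279 in KSPAPN, or 215 ± 26.4 and 276 ± 23.6 (SD, n = 3). The groups did not overlap, but Control replicate 3 and KSPAPN replicate 2 were close. Its log2 fold change of 0.37 (SE 0.11) had an adjusted p of 0.120 from edgeR, 0.0198 from edgeR without a filter and 0.0431 from DESeq2. With libraries left out in turn it lay between 0.31 and 0.48, with adjusted p from edgeR between 0.0818 and 0.385.

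*H2-K1* and *H2-D1* encode class I heavy chains, the partners of the *B2m* product. *H2-K1* had 87.6, 75.1 and 88.2 FPKM in Control and 103, 69.9 and 76.7 in KSPAPN. *H2-D1* had 92.5, 72.6 and 85.8 in Control and 93.3, 63.2 and 69.0 in KSPAPN. In both, KSPAPN replicate 1 was the highest library and KSPAPN replicate 2 the lowest, so the groups overlapped. Log2 fold changes were 0.0019 (SE 0.15) for *H2-K1* and -0.15 (SE 0.15) for *H2-D1*, with adjusted p from edgeR of 0.997 and 0.656, and the sign for *H2-K1* turned with the library left out (-0.17 without KSPAPN replicate 1). That of *H2-D1* held, but its size ran from -0.32 without KSPAPN replicate 1 to -0.030 without KSPAPN replicate 2, and with the GC and length trend removed *H2-D1* was at -0.0026 and *H2-K1* at 0.15. *B2m* relative to the sum of both heavy chains, on FPKM, was 1.11, 1.34 and 1.41 in Control and 1.51, 1.88 and 1.92 in KSPAPN. This ratio did not overlap between the groups. It was formed after its parts were seen and was not tested. The transporter genes *Tap1* and *Tap2* and the immunoproteasome genes *Psmb8*, *Psmb9* and *Psmb10* ranged from -0.12 to 0.20, and *Tap1* and *Psmb9* overlap, with starts 211 bases apart.

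**Figure D5:**
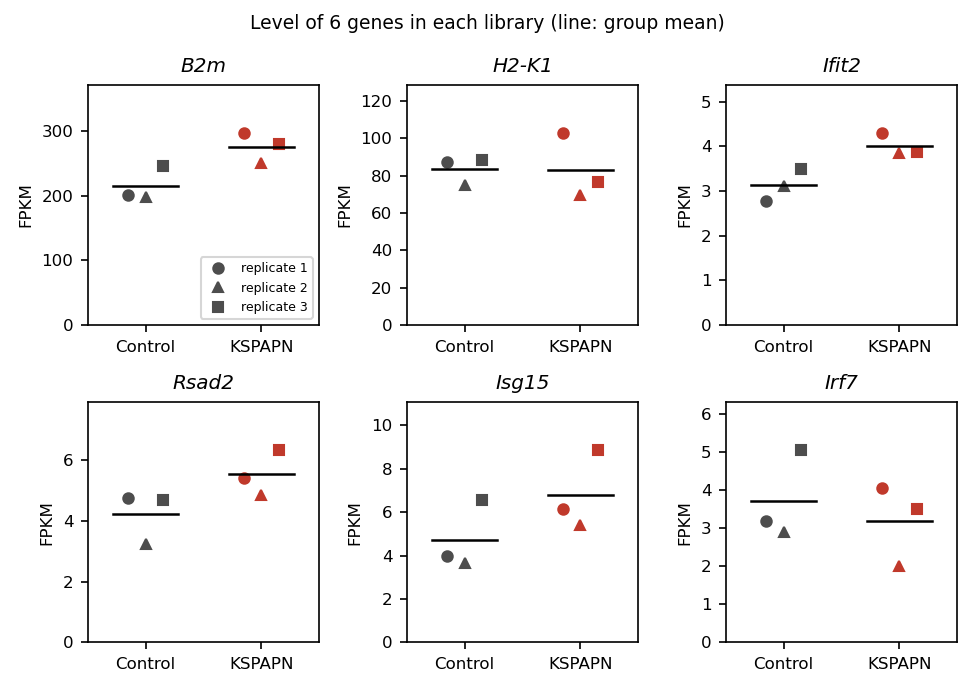
FPKM (vertical axis, from 0) of 6 genes in each library, with replicates marked by shape and group means by lines. *B2m*, *Ifit2* and *Rsad2* do not overlap between groups, while *H2-K1*, *Isg15* and *Irf7* do.

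The printed promoters can be set beside these values. The 16 genes with a response element core showed a median of 0.26 for the log2 fold change, with 16 of 16 above 0, and the 17 without a match in the window had 0.090, with 12 above 0. The library medians of the 16, relative to all 6 libraries, stood at -0.27, -0.25 and 0.13 in Control and 0.25, -0.016 and 0.22 in KSPAPN. In the 17 the medians took values of -0.035, -0.20 and 0.094 in Control and 0.27, -0.19 and 0.12 in KSPAPN. Control replicate 3 was high and KSPAPN replicate 2 the lowest of its group in both. For the gamma-activated site core the median was 0.10 in the 8 genes that have it, with 8 of 8 above 0, and 0.20 in the 25 that do not, with 20 above 0. These are descriptions of the 33 genes with a window and were not tested. The genes without one are left out. Of these, *Mx1* (-0.25), *Rtp4* (-0.16), *Parp9* (-0.11), *Oas2* (-0.075) and *Usp18* (-0.025) lay below 0. *Dhx58*, *Zbp1*, *Parp14*, *Iigp1* and *Tap2* lay above 0. The contrast therefore depends on which genes had a window.

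Further interferon-induced genes outside the set of 43, taken as a list of 47 of which 46 were tested, centred on a log2 fold change of 0.093 (median), and 32 were above 0. At an adjusted p under 0.05, edgeR called 0 and DESeq2 0 of the 45 it gave one, and at an unadjusted p under 0.05 edgeR gave 1 higher and 1 lower, or 4.35% of the list, against 18.7% of all genes. The number at an unadjusted p under 0.05 depended on the libraries. It was 9 without Control replicate 3 (19.6%, against 16.2% of all genes). Without Control replicate 1 or KSPAPN replicate 3 it was 0 (against 12.0% and 13.8%). Groups lay apart upward in 1 gene of the list and downward in 3, fewer than the 11.4% and 13.1% of all genes. *Eif2ak2*, the kinase PKR, had 3.21, 3.88 and 3.97 FPKM in Control and 4.42, 4.55 and 5.56 in KSPAPN (log2 fold change 0.40, SE 0.14; edgeR adjusted p = 0.161). *H2-T23*, a nonclassical class I chain, was at -0.20 (SE 0.087), or -0.087 with the GC and length trend removed and -0.13 with total counts only, and *Gbp4* at 0.47 (SE 0.22), or 0.28 without KSPAPN replicate 3. Without KSPAPN replicate 1, 1 gene of the list, *Samd9l*, was called as higher, in a fit that called 4.46% of all genes.

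Of 35 genes of the pathway that makes and transmits interferon, 25 were tested. The 10 interferon genes were below the filter, and 8 of them had a count of 0 in all 6 libraries, which allows up to 0.175 CPM in the shallowest (3 counts, for counting error only). For *Ifng* the 3 Control libraries counted 0, 0 and 3 reads and the KSPAPN libraries 0, 5 and 0. The interferon genes were thus at or near the limit of detection in both groups.

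All 6 receptor genes had log2 fold changes above 0, with a median of 0.26, and in 4 of them, *Ifnar2*, *Ifngr1*, *Ifngr2* and *Ifnlr1*, every KSPAPN library exceeded every Control library. Upward separation of this kind held for 11.4% of all genes tested and for 8 of the 25 pathway genes, while 1 of the 25 lay apart downward. The lowest adjusted p of these from edgeR was 0.190, for *Ifngr1* (0.28, SE 0.11), and DESeq2 called 0 of the 6. Their FPKM added up to 34.7, 35.3 and 37.8 in Control and 40.0, 41.5 and 41.3 in KSPAPN. The 3 JAK kinase genes ranged from 0.060 to 0.11.

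*Irf5*, a factor that turns on inflammatory genes downstream of Toll-like receptors, was the gene of this pathway list that passed the test, 1 of 25 where 2.25% of all genes were called lower. Its FPKM fell from 5.93, 6.43 and 5.82 in Control to 3.99, 3.43 and 3.47 in KSPAPN. The groups were well apart, and no library stood out. The log2 fold change was -0.73 (SE 0.14; adjusted p = 0.0259 in edgeR, 0.00126 in DESeq2). Scaling by total counts only gave -0.66, with an adjusted p of 0.0571 from edgeR, so *Irf5* was not called there. The adjusted p from edgeR was 0.113 without Control replicate 1, 0.0785 without Control replicate 2, 0.0512 without Control replicate 3, 0.0690 without KSPAPN replicate 2 and 0.107 without KSPAPN replicate 3, with log2 fold changes from -0.80 to -0.68 over the 6 fits. *Ikbke*, a kinase that activates IRF3, was at 0.66 (SE 0.20), *Tlr3*, a sensor of double-stranded RNA in endosomes, at 0.52 (0.16) and *Pias1*, a SUMO ligase that restrains the response, at 0.30 (0.098; 0.18 with the GC and length trend removed), with adjusted p from edgeR of 0.119, 0.122 and 0.132. For *Ikbke* the adjusted p from edgeR was 0.0223 without a filter and 0.0481 with replicate number as a block. Its log2 fold change was 0.33 with limma on log2(FPKM + 1).

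Leukocytes express many of these genes, so their markers were summed in each library. The FPKM of 27 immune markers summed to 59.5, 65.0 and 63.3 in Control and 77.8, 50.9 and 57.9 in KSPAPN (exact permutation test, two-sided, p = 1; the design cannot go below 0.1). The filter was passed by 15 of the 27. The sum was highest in KSPAPN replicate 1 and lowest in KSPAPN replicate 2, while KSPAPN replicate 3, high for the 43 genes, lay below every Control library and Control replicate 3 did not stand out. Single markers differed from the sum. *Lyz2* was at most 11.5 FPKM in every library but KSPAPN replicate 1, where it was higher, and the most abundant marker, *Csf1r*, had 16.6, 16.3 and 15.3 in Control and less in each KSPAPN library (14.6, 13.2 and 14.3). The 5 dendritic cell markers, 2 of which passed the filter, summed to 1.16, 0.877 and 1.26 in Control and 1.41, 1.61 and 1.28 in KSPAPN, so that the groups did not overlap (exact p = 0.1), although both of the markers that passed overlapped. The sum for podocyte markers also lay apart upward (mean 15.4 in Control and 20.5 in KSPAPN). Those for proximal tubule (1512 and 1342), distal convoluted tubule (90.9 and 70.5) and liver markers (123 and 58.8) lay apart downward. Each of these 4 sums had an exact p of 0.1 by the permutation test, the lowest that the design allows. Among single genes, 0 of the 5 proximal tubule markers and 2 of the 5 liver markers tested lay apart downward, against 13.1% of all genes. Most of the proximal tubule sum was *Slc34a1* (mean 1149 FPKM), and the distal convoluted tubule had 1 marker. The 8 macrophage markers summed to 54.1, 60.5 and 59.2 in Control and 71.5, 46.8 and 53.0 in KSPAPN, while the 3 neutrophil markers, 0 of which passed the filter, stayed between 0.210 and 1.78. Their part in the result was not tested. In edgeR, with the adjusted p below 0.05, 2 of 39 kidney, immune and liver markers tested differed, *Slc12a1* upward (0.52, SE 0.11, adjusted p = 0.0437) and *Ttr* downward (-1.17, SE 0.25, adjusted p = 0.0388), where 0.393% of all genes were higher and 2.25% lower. Markers of the same cells did not all follow: *Umod*, like *Slc12a1* a marker of the thick ascending limb, was at -0.045, and of the liver markers beside *Ttr*, *Alb* was at 0.55, *Fgb* at 0.13, *Fga* at -0.37 and *Serpinc1* at -0.85.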

How the data were processed

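Whole-kidney RNA was enriched for mRNA with oligo(dT) beads. The authors deposited raw read counts per gene, without normalization, and FPKM per gene. The submitters' processing notes name STAR 2.5, TopHat, HTSeq 0.6.1, DESeq2 and edgeR without roles. Genome build, annotation and strandedness were not given in the sources used here. In the labels, the extraction text speaks of liver although the tissue is kidney. Symbols and coordinates came from GENCODE M21 (GRCm38) and promoters from RefSeq (GRCm38.p6).

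Counts were compared in edgeR 4.0.16 (R 4.3.3) with TMM factors, filterByExpr (minimum count 10, minimum total 15), the two-sided quasi-likelihood test and Benjamini-Hochberg adjustment over 16017 genes, after a test on simulated data. Standard errors were taken from the F statistic. DESeq2 1.42.0 and limma 3.58.1, the latter on log2(FPKM + 1) and log2(FPKM + 0.1), RLE factors, total counts, no filter, a replicate block, removal of a GC and length trend and each library left out were alternatives.

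The members and lists were chosen with earlier results of these data known. Values in every library are given for members past adjusted p 0.05, the 5 with the largest absolute log2 fold change, the 3 with the highest mean FPKM and the transcription factors. From other lists, genes past adjusted p 0.05 and the 3 next by unadjusted p are named.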

Additional observations from a re-analysis of the deposited data

How the results depend on the processing

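Of 21 named genes, 17 had the same sign under all 14 alternatives. No call among the 43 genes was made by edgeR with TMM and the filter or by limma, while DESeq2 and edgeR without a filter on low counts called 1 each, *B2m* (adjusted p = 0.0431 and 0.0198; 6.60% and 4.55% of all genes were called). The range of adjusted p for *B2m* over all alternatives was 0.0198 to 0.385. For the 43 genes, the median log2 fold change lay between 0.092 and 0.29. With total counts only, the median of all genes was 0.081 and that of the 43 genes 0.20. Removal of the GC and length trend gave 0.21. Calls among the interferon pathway genes numbered 2 without a filter (*Irf5* and *Ikbke*), 0 with total counts only, and from 0 to 1 as libraries were left out in turn, where 4.55%, 1.66% and from 0.236% to 4.46% of all genes were called. For the further interferon-induced genes the range over libraries left out was 0 to 1. *H2-K1* turned to -0.023 with limma at both pseudocounts and to -0.017 with the replicate block. With libraries left out, *H2-K1* ranged from -0.17 to 0.12, *Irf1* from -0.013 to 0.29, *Irf7* from -0.41 to 0.082 and *Irf9* from -0.014 to 0.20. The causes were not tested.

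Libraries share only a replicate number between groups. The correlation of deviations from the group means was 0.054, 0.15 and 0.17 for the same numbers, and each KSPAPN library correlated best with its own number, a hint from the data and not from the design. With the replicate block, 0 of the 43 genes were called by edgeR (11 at an unadjusted p under 0.05, or 25.6%, against 24.3% of all genes), the median was 0.14, and calls over all genes went from 424 to 929. The block gave 2 calls among the pathway genes, *Irf5* and *Ikbke*, and 0 among the further interferon-induced genes. Pools of several mice and 3 libraries a group limit what could be detected.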
